A study of Mus musculus with 2 samples.

Results

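CD8 T cells of the mouse retina in experimental glaucoma were examined here by single-cell RNA sequencing. They were chosen by transcript counts: at least 2 UMIs (unique molecular identifiers, each tagging 1 captured RNA molecule) over the CD3 chains Cd3d, Cd3e and Cd3g, and at least 1 UMI of Cd8a or Cd8b1. Cells with 3 or more UMIs of the gamma-delta T cell genes Trdc, Trdv4, Cd163l1 and Il17a, or of the B cell genes Cd79a, Cd79b and Ms4a1, were left out. So were cells at 15 or more UMIs per 10000 over 6 microglial genes (P2ry12, Tmem119, Gpr34, Olfml3, Sparc and Sall1). This gave 81 CD8 T cells among 4385 cells, 15 of 1055 in the PBS library and 66 of 3330 in the Igfbpl1 library.

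Both groups were B6 mice with microbead-induced glaucoma, in which injected beads block the outflow of fluid from the eye and raise its pressure. One group was treated with PBS and the other with Igfbpl1, an insulin-like growth factor binding protein-like factor. Each group was 1 library of CD45-positive cells sorted from the pooled retinas of 10 mice aged 8 to 10 months, so every retinal sample was glaucomatous and no untreated eye is compared here. Retinas were dissociated with enzymes for 1 hour at 37 °C after saline perfusion. With 1 library per group no difference between groups could be tested, and every interval below is an exact 95% interval that covers counting error only, not the variation between mice or preparations.

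CD8 T cells are the cytotoxic branch of the adaptive immune system. Their receptor reads peptides on MHC class I, with the CD8 alpha and beta chains (Cd8a and Cd8b1) as co-receptor. Naive cells recirculate between blood and lymph nodes and express homing receptors and the transcription factors Lef1 and Tcf7. Cells that have met antigen express chemokines such as Ccl5, the cytokine interferon gamma (Ifng) and granule proteins, and can remain in tissues. T cells are sparse in the healthy retina, and T cell entry has been described in glaucoma models.

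The label was checked against its markers. CD3 and CD8 transcripts were required by the rule and say nothing about the name. Cd3d was present in 93.3% of the PBS and 93.9% of the Igfbpl1 cells, and the T cell receptor alpha constant gene Trac, which the rule did not use, in 10 of 15 and 39 of 66. Trac was found in 0% of PBS and 1.61% of Igfbpl1 B cells, a cell type that should lack it. The beta chain constant gene Trbc2 was present in 100% and 90.9% of the CD8 T cells. Both CD8 chains were seen in 7 PBS and 22 Igfbpl1 cells, Cd8a alone in 2 and 13, and Cd8b1 alone in 6 and 31. A Cd4 UMI was found in 1 and 2 cells. Of 6 CD4 T cell markers 4 were seen in the PBS cells (8 UMIs in 5 of 15) and 5 in the Igfbpl1 cells (89 UMIs in 39 of 66), with Foxp3 at 0. Of these, Icos, a costimulatory receptor that activated CD8 T cells can also express, had 52 UMIs in 27 Igfbpl1 cells. All 7 gamma-delta markers were at 0 in the PBS cells, and 5 UMIs of them lay in 4 of the 66 Igfbpl1 cells. Of 8 natural killer markers 2 were seen in the PBS cells (2 UMIs, Ncr1, Klrb1c and Klre1 at 0) and 7 in the Igfbpl1 cells (276 UMIs in 35 cells, or 81 UMIs in 27 cells without the myeloid-rich cells described further on). Of 6 B cell markers 3 were seen in each library (12 UMIs in 8 PBS cells and 30 UMIs in 22 Igfbpl1 cells), mostly the immunoglobulin genes Ighm and Igkc. Cd79a and Ms4a1, which the rule limited, were at 0. Of 10 microglial markers 3 were seen in the PBS cells (15 UMIs) and 8 in the Igfbpl1 cells (214 UMIs), with Tmem119 and Sall1 at 0 in both. Of 7 monocyte or macrophage markers 3 were seen in the PBS cells (36 UMIs in 10 cells). All 7 were seen in the Igfbpl1 cells (600 UMIs in 56 cells, or 285 UMIs in 48 cells without the myeloid-rich cells). Of 8 dendritic markers 1 was seen in the PBS cells (2 UMIs in 2 cells). In the Igfbpl1 cells 5 were seen (642 UMIs in 30 cells, or 29 UMIs in 23 cells without the myeloid-rich cells). Trac and Trbc2, which the rule did not use, go with the name for T cells, and the part of the other markers in the results was not tested.

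Depth differed between the libraries. Per cell, 1620 to 5937 UMIs were counted with PBS (median 4311, sum 62192). With Igfbpl1 the range was 1122 to 13679 (median 2598, sum 231063). Exactly 1 CD8 UMI, the smallest number the rule accepts, was carried by 5 PBS and 23 Igfbpl1 cells. Just outside lay 14 and 168 T cells that met every other limit with 0 CD8 UMIs, and these hold an unknown number of CD8 T cells whose CD8 transcripts were not captured. At the other limits, a CD3 sum of exactly 2 was carried by 0 and 3 cells, with 0 and 3 cells at 1 CD3 UMI outside. Between 5 and 15 microglial UMIs per 10000 lay 0 and 1 cells, with 0 and 4 just above 15. When each cell was thinned at random to 1000 UMIs, 12 of 15 and 40 of 66 kept a CD8 UMI. No barcode was shared by the libraries. The libraries also differed in sex-linked transcripts, as given further on.

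As a share of all cells, CD8 T cells were 1.42% (0.798 to 2.33%) with PBS. With Igfbpl1 they were 1.98% (1.54 to 2.51%), and the intervals overlap. Among all CD3 T cells of the rule, with or without CD8 UMIs, the share was 51.7% with PBS (15 of 29 cells, 32.5 to 70.6%), against 28.2% with Igfbpl1 (66 of 234 cells, 22.5 to 34.4%). The number of T cells without CD8 transcripts therefore differed more between libraries than the number of CD8 T cells, 1.33% against 5.05% of all cells. The lower depth of the Igfbpl1 library moves with this share, and its part in it was not tested. With every cell at 1000 UMIs before the rule was applied, the shares of the library were 0.758% and 0.871%, and the shares of T cells 42.1% and 17.9%.

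The 15 CD8 T cells of the PBS library mostly carried more naive than effector transcripts, and the 66 of the Igfbpl1 library mostly the reverse. The UMIs of 2 lists were counted in each cell, 16 naive and recirculation genes and 19 cytotoxic effector genes. All 16 naive genes are listed in both libraries. All 19 effector genes are listed for Igfbpl1 but only 16 for both libraries, and a gene not listed counted as 0. More naive than effector UMIs were found in 12 of 15 PBS cells (80.0%, 51.9 to 95.7%) and in 9 of 66 Igfbpl1 cells (13.6%, 6.43 to 24.3%). These intervals do not overlap. The split is a range of counts, not a cell type, and 2 PBS and 7 Igfbpl1 cells lay within 3 UMIs of it.

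Per 1000 UMIs of the cell, naive transcripts ran from 0.502 to 11.1 in the PBS cells with a median of 4.74, and from 0 to 10.4 in the Igfbpl1 cells with a median of 2.21. Effector transcripts ran from 0 to 33.1 with a median of 0.674, and from 0 to 65.1 with a median of 11.6. The naive ranges are alike while their medians differ, and the effector list reaches higher in the Igfbpl1 cells in both its median and its highest cell. Across cells the UMIs per 1000 of both lists ran against each other weakly, with Spearman's rho of -0.38 over 15 PBS cells and -0.24 over 66 Igfbpl1 cells. This is a description of cells that share their library, and both lists depend on the depth of the cell, the denominator of both rates.

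**Figure D1:**
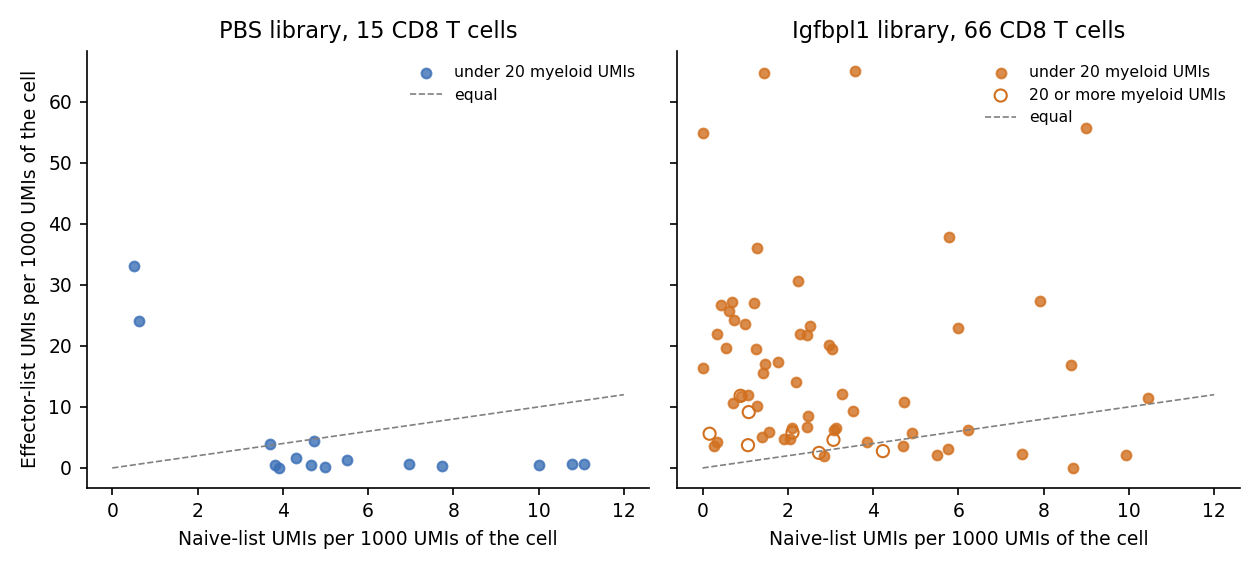
Naive-list against effector-list UMIs per 1000 UMIs of each cell, 1 point per CD8 T cell, for the PBS library (15 cells, left) and the Igfbpl1 library (66 cells, right); the dashed line marks equal counts and open circles mark cells with 20 or more UMIs of 10 myeloid genes. In the PBS library 12 of 15 cells lie below the line, and in the Igfbpl1 library 9 of 66.

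Ccl5 (RANTES), a chemokine of antigen-experienced CD8 T cells, had the most UMIs of the effector list in the Igfbpl1 cells. In the PBS library 4 of 15 cells held all 76 of its UMIs, the highest cell 35 of them, and 11 cells had none. In the Igfbpl1 library 57 of 66 cells held 1644 UMIs, out of 2726 for the whole effector list. The median over the 66 cells was 20 and the highest cell had 91. At least 10 Ccl5 UMIs were counted in 3 of 15 and 48 of 66 cells. Summed over cells and scaled to CPM (counts per 1000000 UMIs), Ccl5 stood at 1222 CPM (963 to 1530) in the PBS and 7115 CPM (6775 to 7467) in the Igfbpl1 cells, a ratio of 5.82 (4.62 to 7.43). The PBS cells were thus split between a few with high Ccl5 and many with none, while most Igfbpl1 cells were high.

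Ccl5 transcripts were also found outside T cells in the Igfbpl1 library. After thinning to 1000 UMIs, 80.3% of the Igfbpl1 and 26.7% of the PBS CD8 T cells had a Ccl5 UMI, against 19.4% and 1.27% of the B cells. The B cells' median depths were 1646.5 and 2235 UMIs. Without thinning, the CD8 T cell shares were 86.4% and 26.7%.

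Ifng, the signature cytokine of type 1 responses, had no UMI in any of the 15 PBS cells. With the limit of 3 counts for a count of 0, up to 20% of cells could have one. In the Igfbpl1 library 25 of 66 cells held 83 UMIs (359 CPM, 286 to 445), with at most 14 in a cell. Set against the limit of 3 UMIs in the PBS sum, Ifng was at least 7.45-fold higher. Of the Igfbpl1 cells, 23 had both Ccl5 and Ifng UMIs, 34 Ccl5 alone and 2 Ifng alone. In B cells 1.27% (PBS) and 1.61% (Igfbpl1) had an Ifng UMI.

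Granule genes were at low levels. The pore-forming protein perforin (Prf1) had 2 UMIs in 1 PBS cell and 10 in 9 Igfbpl1 cells, at 32.2 and 43.3 CPM with overlapping intervals. Granzyme A (Gzma) had 0 UMIs in the PBS cells and 12 in 3 Igfbpl1 cells. Granzymes B and K are listed only for the Igfbpl1 library, where Gzmb had 22 UMIs in 6 cells (95.2 CPM, 59.7 to 144) and Gzmk 16 UMIs in 11 cells (69.2 CPM, 39.6 to 112). The granule membrane protein gene Nkg7 was broader, with 29 UMIs in 9 PBS cells and 281 in 55 Igfbpl1 cells (466 and 1216 CPM, ratio 2.61, 1.78 to 3.97). Cathepsin W (Ctsw) differed little, at 386 and 450 CPM (ratio 1.17, 0.743 to 1.90). Most Igfbpl1 cells therefore carried Ccl5, Nkg7 and Ctsw UMIs, while Ifng and each granzyme and perforin were found in a minority.

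Lef1, which with Tcf7 maintains the naive state, showed the reverse pattern. It was present in 11 of 15 PBS cells (55 UMIs, 884 CPM, 666 to 1151) and 26 of 66 Igfbpl1 cells (40 UMIs, 173 CPM, 124 to 236), a ratio of 0.196 (0.127 to 0.300). Tcf7 was at 434 and 173 CPM (ratio 0.399, 0.239 to 0.676). Dapl1, enriched in naive CD8 cells, was at 354 and 108 CPM (0.306, 0.166 to 0.569). The interleukin 7 receptor gene Il7r, which sustains resting T cells, was at 724 and 420 CPM (0.580, 0.403 to 0.846). The chromatin organiser Satb1 was at 515 and 190 CPM (0.370, 0.229 to 0.603), and the quiescence factor Foxp1 at 1013 and 381 CPM (0.376, 0.269 to 0.528). These intervals all lie below 1. Klf2, which drives expression of exit and homing receptors, was at 1093 and 788 CPM (0.720, 0.542 to 0.966; 0.632 to 1.14 without the myeloid-rich cells), and its target S1pr1 at 113 and 104 CPM, with an interval on both sides of 1 (0.386 to 2.54).

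Lef1 and Ccl5 were also counted together in each cell. Of 15 PBS cells, 10 had Lef1 without Ccl5, 3 Ccl5 without Lef1, 1 both and 1 neither. Of 66 Igfbpl1 cells, 5 had Lef1 without Ccl5, 36 Ccl5 without Lef1, 21 both and 4 neither.

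**Figure D2:**
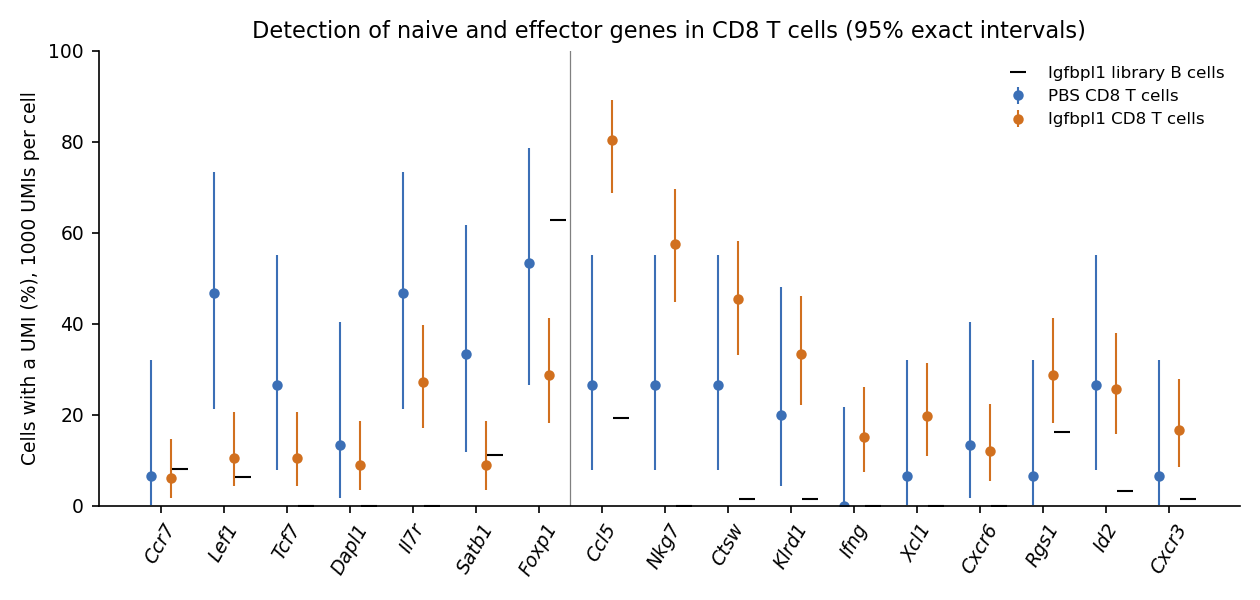
Percent of CD8 T cells with a UMI of each naive (left) and effector or tissue-residence (right) gene after thinning every cell to 1000 UMIs, with exact 95% intervals, for 15 PBS and 66 Igfbpl1 cells; black bars give the Igfbpl1 library's B cells. Lef1, Tcf7, Il7r and Satb1 were found in larger shares of the PBS cells, and Ccl5 and Nkg7 in larger shares of the Igfbpl1 cells.

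Across the transcriptome, 2100 genes were listed in both libraries with 20 or more UMIs over both sums. With 10 CPM added to both sides, 442 of them were at least 2-fold higher in the Igfbpl1 cells (21.0%) and 107 at least 2-fold lower (5.10%), and the median log2 ratio of all was 0.19. Scaling by the median of gene ratios in place of total UMIs moved that median to 0.01 and the counts to 339 higher and 172 lower. List counts are to be read against the 21.0% and 5.10% of all genes.

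Of the naive list, 11 of 16 genes were measured, 0 were 2-fold higher and 7 lower (median log2 ratio -1.20). Of the cytotoxic effector list, 8 of 19 were measured, 6 higher and 0 lower (median 1.90, or 1.57 with genes at 0 UMIs set to their bound). Ifng and Cx3cr1 are 2 of those 6 and had 0 UMIs in the PBS cells, so they reached the minimum only through the Igfbpl1 cells, and without them 4 of 6 were higher. Its higher members were Ccl5, Ifng, Nkg7, the calcium-binding proteins S100a6 (386 and 1342 CPM, ratio 3.48, 2.29 to 5.51) and S100a4 (80.4 and 359 CPM, ratio 4.47, 1.84 to 14.1), and Cx3cr1. S100a4 in the PBS library came from 1 cell. Cx3cr1, a chemokine receptor that microglia and monocytes also express, had 0 UMIs in the PBS cells and 25 in 8 Igfbpl1 cells, of which 2 UMIs remained without the 8 myeloid-rich cells described further on. No gene of either list took part in choosing the cells, but the lists were picked with earlier results of these libraries known.

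Chemokines other than Ccl5 rested on fewer cells. Xcl1, which attracts cross-presenting dendritic cells, had 2 UMIs in 1 PBS cell and 153 in 22 Igfbpl1 cells (32.2 and 662 CPM, ratio 20.6, 5.60 to 172), but 1 cell held 72 of the 153. Ccl4 was at 225 and 628 CPM (ratio 2.79, 1.61 to 5.23), with 12 of 14 PBS UMIs in 1 cell, and its log2 ratio turned to -0.77 when cells were thinned to 1000 UMIs before the rule. Lymphotoxin beta (Ltb) was at 579 and 602 CPM, and its interval includes 1 (0.716 to 1.54). Il22 had 78 UMIs in a single Igfbpl1 cell and 0 in the other 65, so its sum describes that cell alone. Of 17 cytokine and chemokine genes, 6 were measured, 5 higher and 0 lower (median 2.62). Among the 5 were Ccl5 and Ifng, already counted in the effector list, and Ifng had 0 UMIs in the PBS cells. Without the myeloid-rich cells described further on, 3 of 5 measured were higher (median 2.86).

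Tissue-residence genes were mixed. Rgs1, a regulator of G protein signalling that dampens chemokine responses, was found in 2 of 15 and 37 of 66 cells (32.2 and 506 CPM, ratio 15.7, 4.26 to 132). Cd69, which opposes exit from tissue, was at 145 and 177 CPM (0.587 to 2.87), and Cxcr6 at 96.5 and 151 CPM (0.653 to 4.57). The integrin Itgae (CD103), a hallmark of resident cells in epithelia, had 0 and 5 UMIs. Of 14 genes, 7 were measured, 4 higher and 0 lower (median 1.35).

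Natural killer receptor genes, which activated CD8 T cells can also express, had 9 of 16 listed in both libraries. Of these 4 were measured, 3 higher and 0 lower (median 3.16, or 2.74 without the myeloid-rich cells). The 3 were Klrk1 and the signalling adaptors Fcer1g and Tyrobp (log2 ratios 4.77 and 3.89), both also abundant in myeloid cells. Klrd1 (CD94) was in 9 of 15 and 39 of 66 cells at 354 and 480 CPM, with an interval that includes 1 (0.854 to 2.25). Klrk1, which encodes the activating receptor NKG2D, was at 16.1 and 130 CPM (ratio 8.07, 1.34 to 329), on 1 UMI in the PBS cells. Klrc1 (NKG2A), the inhibitory partner of CD94, had 25 UMIs in 13 Igfbpl1 cells.

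Chemokine and cytokine receptors differed little as a list, with 12 of 22 measured, 2 higher and 1 lower (median 0.46). Cxcr3, which guides effector T cells to interferon-induced chemokines, was in 2 of 15 and 19 of 66 cells (48.2 and 99.5 CPM, 0.623 to 10.7). Il2rb, the shared beta chain of the interleukin 2 and 15 receptors, was at 32.2 and 126 CPM (ratio 3.90, 0.987 to 33.8). Both intervals include 1, so neither difference was beyond counting error. Beside Il2rb, the gene counted higher was Ccr2 (log2 ratio 3.33), which had 0 UMIs in the PBS cells and reached the minimum only through the Igfbpl1 cells. The lower one was Ccr7 (log2 ratio -1.16).

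Inhibitory receptor and cell cycle genes were sparse. Of 14 inhibitory receptor genes 4 were measured, 2 higher and 0 lower (Ctla4 at 32.2 and 99.5 CPM, Entpd1 at 16.1 and 82.2 CPM), on 2 and 1 UMIs in the PBS cells and with intervals of the ratio that include 1 (0.765 to 27.1 and 0.813 to 213). The inhibitory receptor genes Pdcd1 (PD-1) and Lag3 had 1 and 3, and 0 and 0 UMIs in the PBS and Igfbpl1 cells. Tox, a factor raised in chronic stimulation, was in 6 of 15 and 29 of 66 cells at 225 and 286 CPM, with an interval of the ratio that includes 1 (0.706 to 2.45). Of 16 cell cycle genes 4 were measured, 3 higher and 0 lower (median 1.63). Hmgb2, a chromatin protein abundant in but not limited to dividing cells, was at 209 and 710 CPM (ratio 3.40, 1.93 to 6.51), with 61 of its 164 Igfbpl1 UMIs in 1 cell. Stmn1, a microtubule regulator, had 1 and 35 UMIs, 20 of them in 1 cell, and Pcna, the replication clamp, 2 and 26. The proliferation marker Mki67 was found in 0 of 15 and 3 of 66 cells.

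The CD4 lineage list, which holds genes that CD8 T cells also express, had 3 of 12 genes measured and all 3 higher (median 2.63). That median is the log2 ratio of Ikzf2, a gene also given with the regulators below. Icos was at 64.3 and 225 CPM (ratio 3.50, 1.29 to 13.3).

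Of the regulators of the CD8 lineage, Runx3, which silences Cd4 in CD8 cells, was at 257 and 299 CPM (ratio 1.16, 0.667 to 2.14), and Bcl2, which protects resting T cells from death, at 627 and 454 CPM (0.725, 0.497 to 1.08). The effector factor Tbx21 (T-bet) had 0 and 12 UMIs. Eomes, listed only for the Igfbpl1 library, had 12 UMIs in 10 cells. Ikzf2 (Helios) was at 32.2 and 251 CPM (ratio 7.81, 2.07 to 66.0). Of 14 factors, 11 were measured, 3 higher and 0 lower (median 0.38), a share near that of all genes. Of the 3, 2 had 0 UMIs in the PBS cells, so they reached the minimum only through the Igfbpl1 cells. Without the myeloid-rich cells described further on, 1 of 8 measured was higher.

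Receptor components gave shares near those of all genes. Of 23 T cell receptor and signalling genes, 21 were measured, 3 higher and 2 lower (median -0.03). Cd3e, which is part of the rule, was at 193 and 415 CPM. Themis, a signalling adaptor of developing and naive T cells, was at 852 and 320 CPM (0.376, 0.261 to 0.545). The receptor adaptor Lat was at 257 and 251 CPM (0.553 to 1.82). Reads of receptor V and J segments were few: 2 UMIs in 2 PBS cells and 11 UMIs in 11 Igfbpl1 cells, with 1 and 13 segments listed, so clonal relations could not be read.

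Interferon-response genes had higher medians in the Igfbpl1 cells. Per 1000 UMIs the list ran from 0.232 to 6.06 in the PBS cells (median 1.00) and from 0 to 19.4 in the Igfbpl1 cells (median 3.47). Ifi27l2a stood at 386 and 1839 CPM (ratio 4.77, 3.16 to 7.52), Ly6a (Sca-1) at 32.2 and 286 CPM (8.88, 2.36 to 74.9), and Isg15 at 32.2 and 164 CPM (5.11, 1.32 to 43.8). Of 20 genes, 12 were measured, 8 higher and 0 lower (median 1.60, or 1.32 at bounds), 2 of them at 0 UMIs in the PBS cells. MHC class I genes differed by less, with 1 of 12 measured higher and 0 lower (median 0.49), H2-K1 at 1399 and 1991 CPM.

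Transcripts that respond to handling and stress also differed. The 12 heat shock genes ran from 3.56 to 12.6 per 1000 UMIs in the PBS cells (median 7.72) and from 4.50 to 45.5 in the Igfbpl1 cells (median 16.2). Of the 12, 7 were higher and 0 lower (median 1.21, or 1.11 at bounds), 1 of them at 0 UMIs in the PBS cells. Among them were Hspa1a at 965 and 3298 CPM (ratio 3.42, 2.63 to 4.52) and Hspa8 at 1029 and 2237 CPM (2.17, 1.67 to 2.87). Of 20 immediate early genes, 17 were measured, 9 higher and 0 lower (median 1.17), 1 of them at 0 UMIs in the PBS cells. Ribosomal protein transcripts made up a median of 46.1% of UMIs in the PBS and 33.5% in the Igfbpl1 cells. Their part in the differences above was not tested.

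**Figure D3:**
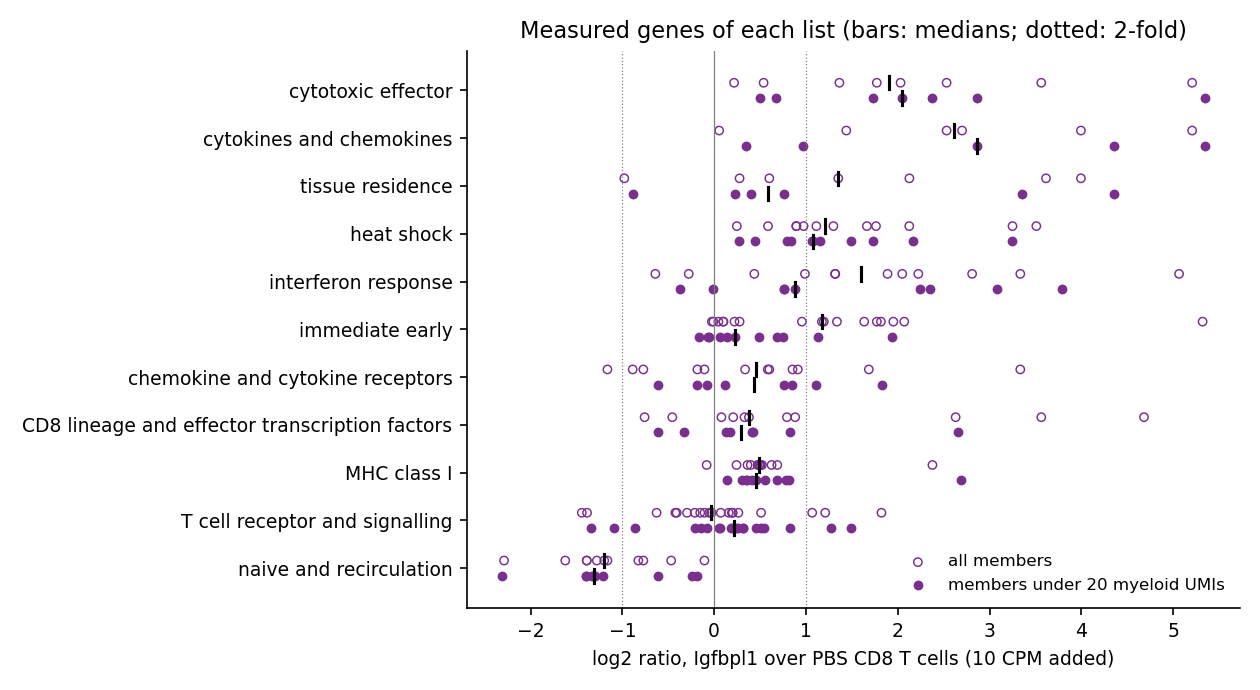
Log2 ratio of Igfbpl1 over PBS CD8 T cells (10 CPM added) for each measured gene of 11 lists, with all CD8 T cells (open circles) and with the cells under 20 myeloid UMIs (filled circles); black bars are list medians and dotted lines mark 2-fold. The naive list's median lies at -1.20 with all cells, and the cytotoxic effector list's at 1.90; the immediate early median is 1.17 with all cells and 0.22 without the myeloid-rich ones.

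Some CD8 T cells of the Igfbpl1 library carried myeloid transcripts. A set of 10 myeloid genes, chosen after the values were seen and including Lyz2, Apoe, Cd74, Csf1r and the MHC class II genes, gave 20 or more UMIs (36 to 1067) in 8 of the 66 cells. The other 58 had at most 9 and the 15 PBS cells at most 4. These 8 cells had a median of 7186.5 UMIs, against 2461.5 in the other 58, and Scrublet called 0 of them a doublet. Of the 10 genes with the highest ratios between libraries, 8 were H2-Eb1, H2-Ab1, H2-Aa, Lyz2, Il1b, Cd74, Atf3 and Apoe, and the other 2 Ifng and Il22. Most UMIs of the myeloid ones lay in those cells. Lyz2 had 199 UMIs with all cells and 2 without the 8, H2-Ab1 237 and 10, Il1b 107 and 5, and Apoe 1795 and 51. Apoe then stood at 193 CPM in the PBS and 310 CPM in the 58 Igfbpl1 cells, with an interval that includes 1 (0.846 to 3.32).

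**Figure D4:**
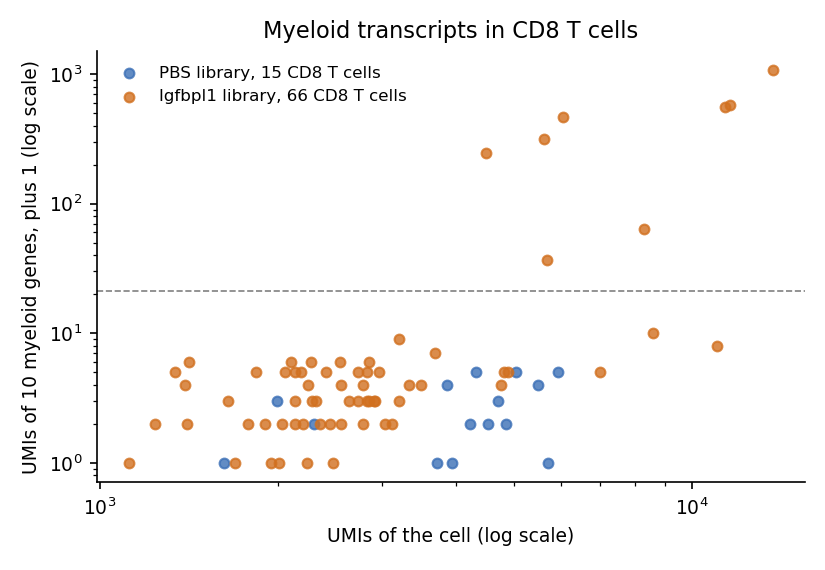
UMIs of 10 myeloid genes plus 1 against the UMIs of the cell (both log axes) for 15 PBS and 66 Igfbpl1 CD8 T cells; the dashed line marks 20 UMIs. Above it lie 8 Igfbpl1 cells with 36 to 1067 such UMIs, with at least 4486 UMIs in all.

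Without these 8 cells, 1533 genes were measured between libraries, 269 higher (17.5%) and 91 lower (5.94%). The naive list then had 7 of 10 genes lower (median -1.31) and the effector list 5 of 7 higher (median 2.05), Ifng among them at 0 in the PBS cells, with Ccl5 at 8955 CPM (8503 to 9424) and Ifng at 396 CPM (305 to 504). The heat shock list had 7 of 11 higher (median 1.07). The interferon list had 4 of 9 higher (median 0.88), the tissue-residence list 2 of 6 (0.58) and the immediate early list 2 of 11 (0.22). Ccl3, at 264 CPM with all cells, had 61 UMIs with all and 10 without them. Beyond the lists, the highest ratios among the 58 cells, a ranking made after the values were seen, were those of Il22, Ifng, Xcl1, St6galnac3, Setbp1, Phf6, Isg20, Etfb, Tespa1 and Alcam. Setbp1 had 0 UMIs in the PBS cells and 24 in 9 of the 58, and Tespa1, which acts in receptor signalling of thymocytes, 0 and 20 in 17 cells.

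The genes lowest in all Igfbpl1 CD8 T cells were, after Lef1, Ripor2, Cmah, Tsc22d3, Arid4a, Dpp4, Xrcc4, Dgka, Sesn1 and Add3. Ripor2, an inhibitor of RhoA that keeps naive T cells from polarising, was in 13 of 15 and 20 of 66 cells (691 and 143 CPM, ratio 0.207, 0.127 to 0.333). Tsc22d3 (GILZ), a glucocorticoid-induced and quiescence-linked factor, was at 402 and 99.5 CPM (0.248, 0.134 to 0.455). Dgka, which restrains receptor signalling by consuming diacylglycerol, was at 273 and 73.6 CPM (0.269, 0.129 to 0.561). Dpp4 (CD26) was at 209 and 51.9 CPM (0.248, 0.104 to 0.591).

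The naive-leaning cells were compared on their own, a comparison added after the values were seen. Of 558 genes measured over 12 PBS and 9 Igfbpl1 cells, 103 were higher (18.5%) and 56 lower (10.0%). Heat shock genes were 7 of 10 higher, with the list at 3.56 to 11.7 per 1000 UMIs in the PBS and 10.3 to 24.7 in the Igfbpl1 cells, ranges that overlap only between 10.3 and 11.7. Hsp90aa1 was at 577 and 2498 CPM (ratio 4.33, 2.87 to 6.70). Ifi27l2a was at 447 and 1781 CPM (3.99, 2.48 to 6.62). Lef1 was at 1024 and 346 CPM (0.338, 0.174 to 0.617), and Il7r at 670 and 915 CPM with an interval that includes 1 (0.839 to 2.22). Both genes are in the list that made the split. Their ratios, here and without the myeloid-rich cells, therefore depend partly on that choice. Of the 9 Igfbpl1 cells 2 are myeloid-rich and hold most of the sum, which is 40436 UMIs with them and 17502 without. Without them 371 genes were measured, 31 higher (8.36%) and 33 lower (8.89%), and 5 of 9 heat shock genes were higher. Hsp90aa1 was then at 1428 CPM (ratio 2.48, 1.40 to 4.33) and Ifi27l2a at 1486 CPM (3.33, 1.84 to 6.05). Lef1 stood at 343 CPM (0.335, 0.118 to 0.777), and Il7r at 1428 CPM, now above the PBS cells (2.13, 1.23 to 3.65).

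The labels give no sex for the mice, and CD8 T cells of the 2 libraries differed in sex-linked transcripts. Cells with UMIs of Xist, the RNA of the inactive X chromosome, and of no Y-linked gene (Ddx3y, Eif2s3y, Kdm5d, Uty) numbered 2 of 15 PBS and 49 of 66 Igfbpl1 cells. The reverse held in 8 and 6 cells, with both kinds in 1 and 3 and neither in 4 and 8. Of cells of either kind alone, 80.0% (44.4 to 97.5%) and 10.9% (4.11 to 22.2%) were Y-only. The microglia of the same libraries stood closer together, at 66.1% and 44.0%. T cells without CD8 transcripts stood further apart, at 87.5% (of 8 cells) and 0.926% (of 108 cells). B cells stood at 78% and 32.3%. Among Y-only cells 7 of 8 PBS and 2 of 6 Igfbpl1 CD8 T cells were naive-leaning, and among Xist-only cells 2 of 2 and 5 of 49. These counts rest on few cells, with 2 in the PBS Xist-only group, and the part of sex in the shares was not tested. Sex of the donors and treatment cannot be told apart for the pooled values.

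T cells without CD8 transcripts differed between libraries in the same lists. Of 14 naive genes measured 0 were higher and 9 lower, and of 12 effector genes 9 were higher and 0 lower, against 25.0% and 5.83% of 4063 genes. Of the 9 higher effector genes, 1 had 0 UMIs in the PBS cells. Whether CD8 T cells differed from them in size of effect was not tested.

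Within the Igfbpl1 library, CD8 T cells resembled the 168 T cells without CD8 transcripts closely. With Cd8a and Cd8b1 left out, 46 of 4890 genes were at least 2-fold higher (0.941%) and 155 lower (3.17%), with a median log2 ratio of -0.03. Ccl5 was 1.64-fold higher in the CD8 T cells (7115 against 4326 CPM, 1.54 to 1.75) and Nkg7 1.82-fold (1216 against 669 CPM, 1.55 to 2.13). Gzmk was in 11 of 66 and 6 of 168 cells (69.2 and 17.8 CPM, ratio 3.89, 1.66 to 9.59). Dapl1 was at 108 and 30.3 CPM (3.58, 1.86 to 7.06), and Zap70, the kinase that binds the activated receptor, at 90.9 and 28.5 CPM (3.19, 1.59 to 6.54). Trac did not separate them, at 351 and 347 CPM (0.770 to 1.32). The remaining genes highest by ratio were Il22, from its single cell, Fam241a, Abcb1b, Snx17, Alcam, Trmt10c, Trim24, Ms4a7 and Pdss2. All 38 UMIs of Ms4a7, a macrophage gene, lay in the 8 myeloid-rich cells.

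NK receptor genes were lower in the CD8 T cells than in T cells without CD8 transcripts. Of 12 measured, 0 were higher and 5 lower, the inhibitory receptor Klra1 at 34.6 against 173 CPM (0.201, 0.0842 to 0.411) and Klre1 at 21.6 against 119 CPM (0.181, 0.0571 to 0.445) among them. The signalling adaptor Fcer1g, also abundant in myeloid cells, was at 701 against 1091 CPM (0.643, 0.537 to 0.765), and at 213 CPM in the 58 cells under 20 myeloid UMIs. Granzyme C (Gzmc) had 0 UMIs in the CD8 T cells and 43 in 5 of the others, at least 5.89-fold lower. Tnfrsf4 (OX40), a costimulatory receptor prominent on CD4 and regulatory T cells, was at 13.0 against 164 CPM (0.0793, 0.0161 to 0.239), and Areg at 0 against 53.4 CPM, at least 4.11-fold lower. Ikzf2 was at 251 against 448 CPM (0.560, 0.413 to 0.747). Of 12 cell cycle genes measured 4 were lower and 0 higher, with Mki67 at 13.0 against 49.8 CPM. Cxcl2 and Il1rn, expressed by myeloid cells, were also lower. The myeloid gene set reached 78.0 per 1000 UMIs in the highest CD8 T cell and 71.7 in the highest T cell without CD8 transcripts.

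Against the 169 natural killer cells of the Igfbpl1 library, which share the cytotoxic programme but lack a T cell receptor, CD8 T cells differed in receptor genes. With the genes of both rules left out, 166 of 4219 genes were at least 2-fold higher (3.93%) and 272 lower (6.45%). Of 17 receptor and signalling genes 10 were higher and 0 lower, and of 11 NK receptor genes 0 were higher and 11 lower. In each list 1 gene had 0 UMIs in 1 set, so it reached the minimum only through the other set. The natural killer cells were chosen by few CD3 UMIs and by NK receptor UMIs. The directions of both lists therefore follow in part from that choice. Trac was at 351 against 4.86 CPM, the transcription factor Bcl11b, which maintains T cell identity, at 186 against 7.28 CPM (25.5, 8.18 to 129), and Themis at 320 CPM against 0 UMIs, at least 44.0-fold higher. Il7r was at 420 against 55.8 CPM (7.52, 4.73 to 12.4).

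Most effector genes that differed were lower in the CD8 T cells. Of 17 measured, 2 were at least 2-fold higher in the CD8 T cells (Gzmk and Cx3cr1) and 9 lower. The 25 Cx3cr1 UMIs fell to 2 without the myeloid-rich cells. Gzma was at 51.9 against 3358 CPM (0.0155, 0.00797 to 0.0271), Gzmb at 95.2 against 330 CPM (0.288, 0.175 to 0.455), Prf1 at 43.3 against 138 CPM (0.313, 0.142 to 0.618) and Ifng at 359 against 1178 CPM (0.305, 0.239 to 0.386). Ccl5 went the other way, at 7115 against 3979 CPM (1.79, 1.67 to 1.92), and Gzmk at 69.2 against 9.71 CPM (7.13, 2.30 to 29.3). Of these genes Ccl5 and Gzmk stood higher in the CD8 T cells than in both other sets, while natural killer cells led in Gzma, Gzmb, Prf1, Ifng and Xcl1. Ly6c2, a marker also of antigen-experienced CD8 T cells, was at 714 against 99.5 CPM (7.17, 5.07 to 10.4), and Ifi27l2a at 1839 against 216 CPM (8.51, 6.76 to 10.8). Apoe was among the highest ratios with all cells (log2 ratio 3.48). It was at -0.01 when cells with 20 or more myeloid UMIs were left out of both sets.

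**Figure D5:**
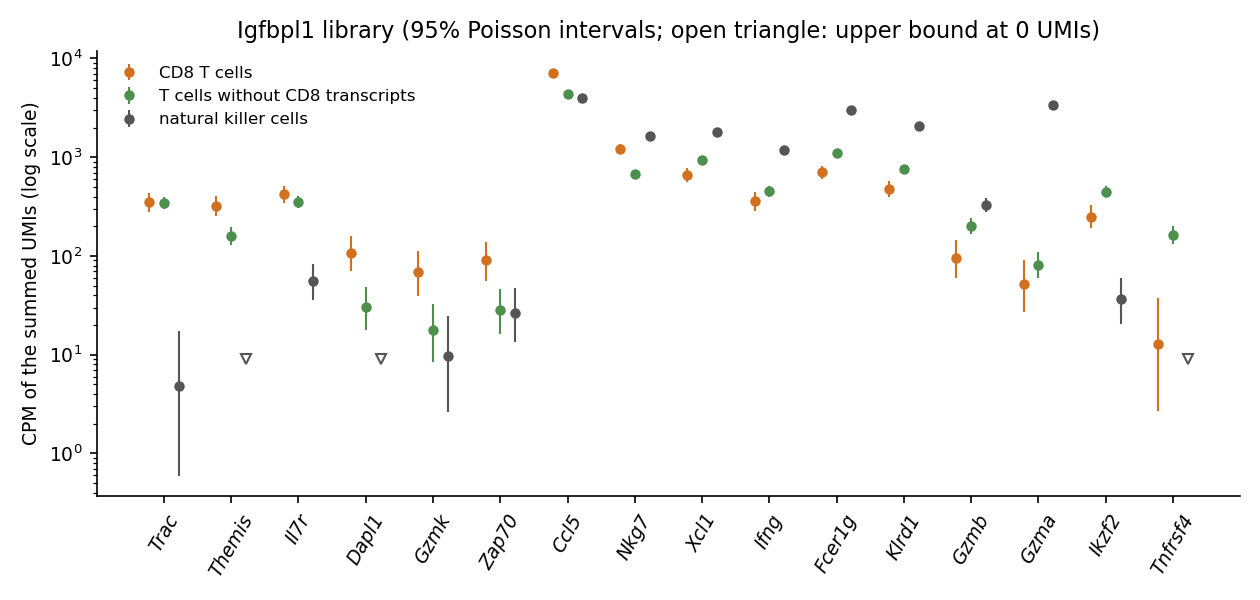
Levels of 16 genes in the Igfbpl1 library's CD8 T cells (66), T cells without CD8 transcripts (168) and natural killer cells (169), as CPM of the summed UMIs on a log axis with exact 95% Poisson intervals; open triangles are upper bounds at 0 UMIs. Ccl5 is highest in the CD8 T cells at 7115 CPM, and Gzma in the natural killer cells at 3358 CPM.

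Genes tied to the treatment were scarce in the CD8 T cells. Igf1r, which encodes the IGF-1 receptor, had 2 UMIs in 1 PBS cell and 7 in 6 Igfbpl1 cells, at 32.2 and 30.3 CPM with an interval of the ratio from 0.179 to 9.29. A difference of moderate size was not detectable at this depth.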

How the data were processed

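The authors deposited 1 table of raw UMI counts for each library, genes by cells. Cell Ranger 3.1 and mm10 are named in the submitters' processing notes, and any filter on cells was not stated there. Genes listed in 1 table only got no ratio, and some genes of the lists are not reported here. Software was Python 3.11.15, numpy 2.4.6, pandas 2.3.3, scanpy 1.11.5 and matplotlib 3.10.9. UMIs were summed over the cells of a set. Intervals were exact at 95% (scipy 1.17.1), using Clopper-Pearson for shares, the conditional binomial for ratios and Poisson for CPM. Log2 ratios had 10 CPM added, printed ratios nothing, and genes needed 20 summed UMIs. A ratio against 0 UMIs was set against 3 UMIs in the sum at 0. It leaves out the counting error of the other set and is not a 95% bound. Thinning drew 1000 UMIs per cell (seed 2). Natural killer cells had under 2 CD3 UMIs and at least 2 UMIs over Ncr1, Klrb1c, Klra8 and Klre1, with the other limits unchanged, and doublets called by Scrublet were kept (6 of 1055 and 62 of 3330 cells). The calculations were tested on simulated data. List members could be named, and at most 12 further genes per direction within the Igfbpl1 library or 10 between libraries, by largest ratio, without mitochondrial, ribosomal, clone-named and receptor segment genes. The cells, the 15 lists and the rules were chosen with earlier results of these data known. Alternatives covered the rule's limits, doublets, depth, added CPM, minimum UMIs, scaling and Xist-only cells, and, chosen after seeing the data, the myeloid-rich cells and a minimum of 100 UMIs.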

Additional observations from a re-analysis of the deposited data

How the results depend on the processing

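The direction of the naive-leaning shares, higher in the PBS library, held under every alternative run. With at least 2 CD8 UMIs the Igfbpl1 share was 1.29% of cells and 20.4% of T cells, and 70 genes were higher and 243 lower than in T cells without CD8 transcripts. With cells thinned to 1000 UMIs before the rule, the shares were 0.758% (PBS) and 0.871% (Igfbpl1), the Igfbpl1 share of T cells was 17.9%, 39 genes were higher and 15 lower between libraries, 52 were higher than in natural killer cells, the median log2 ratio between libraries was 0.084, and the log2 ratios of Ccl4 between libraries and Apoe over natural killer cells turned to -0.77 and -0.41; fewer cells and genes were left. Among Xist-only cells the Igfbpl1 share was 3.17% and 100% of PBS cells (2 of 2) were naive-leaning.

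The counts of genes also moved with the pseudocount and the minimum, given here as higher and lower counts between libraries, over T cells without CD8 transcripts and over natural killer cells. They were 262 and 54, 2 and 18, and 53 and 96 with 50 CPM added. They were 922 and 289, 117 and 338, and 313 and 446 at 10 UMIs, and 2380 and 1124, 215 and 521, and 580 and 648 with no minimum (median log2 ratio between libraries 0.52). At 100 UMIs they were 57 and 18, 1 and 17, and 17 and 49. With 1 CPM added, 107 and 274 genes differed from T cells without CD8 transcripts, and 76 and 245 by the mean CPM per cell. Between libraries, median-ratio scaling gave 172 lower (median 0.011), leaving out the 8 myeloid-rich cells 269 higher, and doing so with the mean CPM per cell 241 higher, where Ccl4 turned to -0.15. Apoe over natural killer cells turned to -0.010 when cells with 20 or more myeloid UMIs were left out of both sets. The causes were not tested. No paired analysis was possible because each group is 1 library. With 15 PBS cells and 62192 UMIs, depth limits most single genes.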
